A study of Rattus norvegicus with 3 samples.

Results

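The genes described here encode 6 matrix metalloproteinases (Mmp2, Mmp3, Mmp9, Mmp10, Mmp13 and Mmp14), the plasminogen activators Plau and Plat and the urokinase receptor Plaur. The 9 genes were taken by their symbols in the annotation of the array, each was matched by 1 probe set, and they are 9 of 15037 named genes measured. RNA from FRSK, an established line of keratinocytes derived from rat fetal skin, was read on 3 Affymetrix whole-transcript arrays. The unstimulated control, the cells given 100 nM β-END(1-9) for 24 h and the cells given 100 nM Met-ENK for 24 h each supplied 1 array. All 3 cultures shared medium with serum and adhered to dishes before treatment, and the sources used here do not say whether the control received vehicle or was kept as long. Met-ENK (Met-enkephalin) is a short opioid peptide, and β-END(1-9) is an N-terminal fragment of the opioid peptide β-endorphin. The comparisons ask how far each peptide, and one peptide against the other, was accompanied by a difference in the signal of these genes.

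Matrix metalloproteinases are zinc-dependent enzymes that are made as inactive precursors and cut collagens, laminins, fibronectin and other matrix proteins. Plasminogen activators turn plasminogen into plasmin, which dissolves fibrin and can in turn remove the propeptide of several metalloproteinases. In a skin wound, keratinocytes at the edge loosen from the basement membrane and move under the clot, and both systems are known to be active in those cells. Tissue inhibitors of metalloproteinases and serpins hold the enzymes in check.

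Of the promoters of the 9 genes, 5 were found in the RefSeq table for build GRCr8, which gives 250 bases before and 50 after a start site. The 100 bases just before the start are shown because AP-1, the dimer of Fos and Jun proteins, is a factor known for driving several genes of this group. Capitals mark the AP-1 motif TGAGTCA, which reads TGACTCA on the opposite strand, and the TATA motif TATAAA, which reads TTTATA there.
Mmp3, chr8:12925181-12925280, plus strand: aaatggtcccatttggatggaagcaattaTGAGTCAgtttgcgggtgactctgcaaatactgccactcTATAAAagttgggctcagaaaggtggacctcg
Mmp10, chr8:12974607-12974706, plus strand: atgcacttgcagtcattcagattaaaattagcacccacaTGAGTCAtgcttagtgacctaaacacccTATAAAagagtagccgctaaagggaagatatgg
Mmp13, chr8:12782729-12782828, plus strand: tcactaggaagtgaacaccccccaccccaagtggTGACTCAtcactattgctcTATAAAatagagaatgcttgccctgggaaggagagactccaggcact
Plaur, chr1:89181263-89181362, plus strand: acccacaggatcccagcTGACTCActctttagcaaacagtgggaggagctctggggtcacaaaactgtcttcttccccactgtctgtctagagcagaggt
Plau, chr15:3511988-3512087, minus strand: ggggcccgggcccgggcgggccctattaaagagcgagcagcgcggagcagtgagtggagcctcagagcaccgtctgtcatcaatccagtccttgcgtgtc

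The AP-1 letters began 71 bases before the start in Mmp3, 61 in Mmp10, 66 in Mmp13 and 83 in Plaur. The letters were absent from the Plau window. Searched on both strands of the whole 300-base window, they stood in 4 of the 5 promoters, against 4.63% of 33469 promoter windows in the table. The TATA letters stood in 3 of the 5, those of Mmp3, Mmp10 and Mmp13, against 14.2% of the windows, and did not overlap the AP-1 letters. Among the 17 windows of metalloproteinase genes, which include those of Mmp3, Mmp10 and Mmp13, the AP-1 letters stood in 6 and the TATA letters in 9. These matches describe the letters only and do not show binding.

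The control genes of the array set the scale for the levels. Its 23 background probe sets ran from a log2 signal of 2.51 to 7.57, and 22 of them had an identical value on the 3 arrays. The 1153 probe sets named as negative controls had medians of 6.15, 6.14 and 6.19 and 95th percentiles of 10.1, 10.2 and 10.4. Here and below, 3 signals in a row stand in the order control, β-END(1-9), Met-ENK. Of 13 listed genes of basal keratinocytes 7 were measured, and those not analysed included Krt5 and Trp63. The 7 measured genes all lay above the background range, among them the keratin gene Krt14 (16.70, 16.63 and 16.61). Of 10 fibroblast markers 2 lay above it, with Col1a1 at 8.28, 8.28 and 8.22, and 0 of the 10 differed by 1.5-fold in any comparison. Of 11 macrophage and neutrophil markers 1 lay above it, and Ptprc, the pan-leukocyte gene, stood at 4.08, 4.02 and 4.05. Cybb, a phagocyte oxidase gene named after its values were seen, was the 1 gene of that list past 1.5-fold against control, at 5.57, 7.33 and 7.03 inside the background range. Of the endothelial markers 0 of 6 lay above that range, and of the melanocyte markers 1 of 4. Named after their values were seen, the endothelial genes Kdr (0.68) and Vwf (0.72) were past 1.5-fold with β-END(1-9) against control, and Vwf (-0.72) and the melanocyte gene Tyrp1 (-0.61) between the peptides, all at signals inside the background range. With 1 array per condition there is no estimate of spread between cultures, no test was made, and the small number of arrays limits how precise any value can be.

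The genes fell into 5 above the background range on all 3 arrays (Mmp3, Mmp9, Mmp14, Plau and Plaur) and 4 within it on all 3 (Mmp2, Mmp10, Mmp13 and Plat). A gene within that range may or may not be expressed. Of the 5 above it, Mmp3, Mmp9, Plau and Plaur also exceeded the 95th percentile of the negative controls on every array, and Mmp14 did so on the control array alone. Levels of different genes come from different probes and are not ranked against each other.

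**Figure D1:**
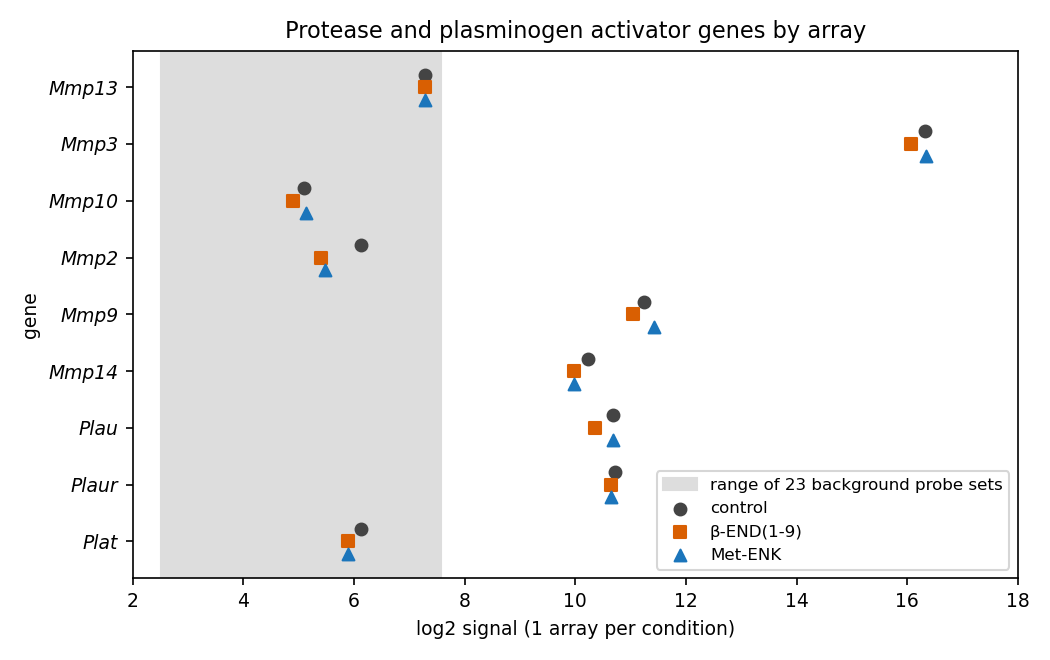
Log2 signal of each of the 9 genes on the control, β-END(1-9) and Met-ENK arrays, with the span of the 23 background probe sets shaded from 2.51 to 7.57. Mmp3, Mmp9, Mmp14, Plau and Plaur lie right of the shading on all 3 arrays, and Mmp2, Mmp10, Mmp13 and Plat lie inside it.

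Mmp3 encodes stromelysin-1, which cuts many matrix proteins and activates other metalloproteinases. Its log2 signals were 16.32, 16.06 and 16.34. The β-END(1-9) array was lowest, at 83.6% of the control signal, a difference of -0.26 that was -0.14 after quantile normalization, and the Met-ENK array differed from control by 0.015. Mmp10 encodes the closely related stromelysin-2, known in keratinocytes at the migrating edge. Its signals were 5.09, 4.90 and 5.13, well inside the background range on every array, with the β-END(1-9) array again lowest.

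Mmp13 encodes collagenase-3, the main enzyme against fibrillar collagen in rodents. Its deposited signal was 7.29 on each of the 3 arrays, equal to the last digit and inside the background range. No difference could therefore be read for this gene (0 in every comparison).

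Mmp9 encodes gelatinase B, which cuts the type IV collagen of basement membranes and is known to be made by keratinocytes in wounds. Its log2 signals were 11.23, 11.04 and 11.41. The peptide arrays lay on opposite sides of control, by -0.19 for β-END(1-9) and 0.18 for Met-ENK. The first was -0.10 after quantile normalization, and the second 0.27 with the trend along genomic span, taken from genes at or above the median level, removed. Their difference of 0.37 was the widest spread over the arrays among the 5 genes above background, a signal with Met-ENK of 1.29 times that with β-END(1-9). Of the 6444 named genes above the background range on at least 1 array, 8.49% had a difference between the peptides this high or higher.

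Mmp2 encodes gelatinase A, which is activated at the cell surface by the membrane enzyme of Mmp14 together with Timp2. Its log2 signals were 6.12, 5.40 and 5.47. Both peptide arrays were lower than control, with differences of -0.72 for β-END(1-9) and -0.64 for Met-ENK, which is 60.8% and 64.0% of the control signal. All 3 values lay inside the background range, and the control value itself was below the median of the background probe sets (6.19). This was the one gene of the 9 to differ by 1.5-fold, and it did so at signals that cannot be told from background.

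Mmp14 encodes membrane type 1 metalloproteinase, a collagenase anchored in the plasma membrane. It had 10.24 on the control array and 9.98 on both peptide arrays. The difference from control was thus -0.26 for each peptide (-0.17 for β-END(1-9) after quantile normalization), and the peptide arrays were equal to the last digit, so the 2 differences are 1 value.

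Plau encodes urokinase, the activator that works on cell surfaces. Its log2 signals were 10.68, 10.36 and 10.68. Control and Met-ENK were equal to the last digit, and β-END(1-9) was lower, with a difference of -0.31, at 80.6% of control. Among the genes above background, 12.6% had a difference from control this low or lower on the β-END(1-9) array. Plaur encodes the receptor that holds urokinase on the cell surface. Its log2 signals were 10.71, 10.65 and 10.65, which is the smallest spread over the arrays (0.057) among the 5 genes above background.

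Plat encodes tissue plasminogen activator, which works on fibrin. It had 6.12 on the control array and 5.90 on both peptide arrays, inside the background range. The difference of -0.22 is the same value for both peptides.

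Equal values of this kind are common in the deposited table. At least 2 of the 3 arrays had the same value in 5 of the 9 genes, against 52.4% of all named genes. A difference of 0 therefore says less than its decimals imply.

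For the comparison of Met-ENK with control, 3 of the 9 genes were higher, 4 lower and 2 equal, with a median difference of 0.00 and a mean of -0.11. The limit of 1.5-fold, a log2 difference of 0.585, was reached by 1 gene, Mmp2, against 7.19% of all named genes. Of the 5 genes above background 0 reached it, against 6.75% of the genes above background. The share of 1 in 9 is too coarse to set apart from the background share.

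For β-END(1-9) against control, 8 of the 9 genes were lower, 0 higher and 1 (Mmp13) equal, with a median difference of -0.22. As deposited, all 5 genes above background were lower, from -0.06 (Plaur, which turned to 0.0048 after quantile normalization and 0.0062 after loess scaling) to -0.31 (Plau), with a median of -0.26. Over the 6444 genes above background, 59.0% were lower and 17.5% higher on this array, and the median was -0.04. The direction shown by the 5 genes was thus also the more frequent one among genes above background. A 1.5-fold difference was met by 1 of the 9, again Mmp2, against 4.61% of all named genes, and by 0 of the 5, against 2.48%. Both comparisons use the same control array, so the values of one are not independent of those of the other.

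For Met-ENK against β-END(1-9), 5 genes were higher with Met-ENK, 0 lower and 4 equal as deposited, with a median of 0.07. After quantile or loess scaling 7 were higher and 2 lower. The higher genes above background were Mmp9 (0.37), Plau (0.31) and Mmp3 (0.27, or 0.17 after loess scaling). Among genes above background, 47.1% were higher and 32.6% lower. A 1.5-fold difference was met by 0 of the 9, against 5.56% of all named genes, and by 0 of the 5, against 4.5%. Met-ENK and β-END(1-9) were matched in dose and time, and since each has 1 array the interval of a difference between them cannot be given.

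**Figure D2:**
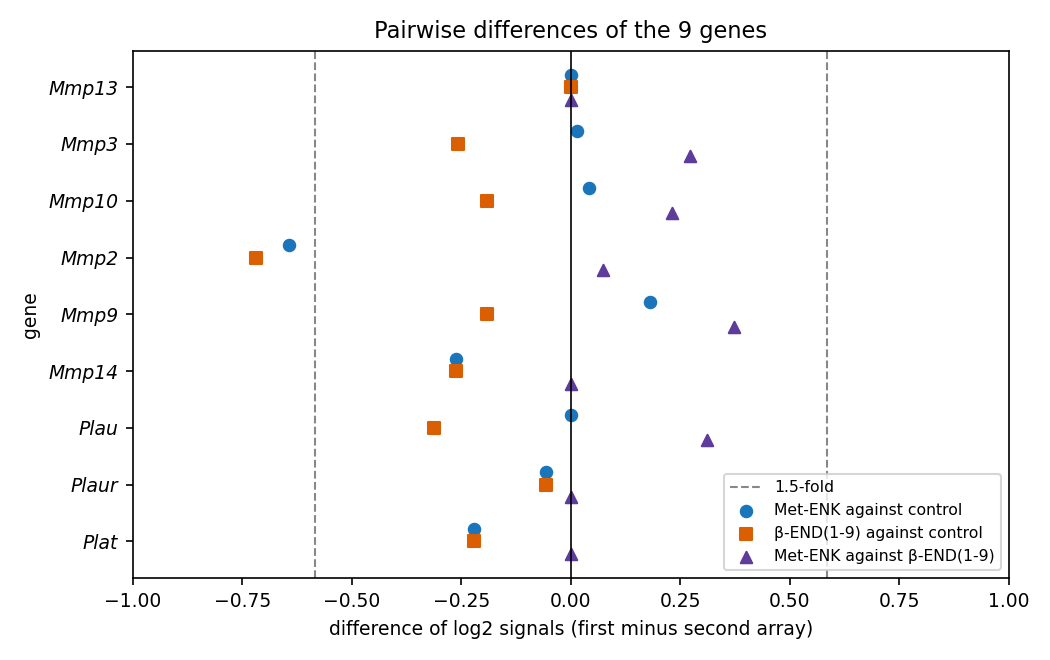
Difference of log2 signals for each of the 9 genes in the 3 pairwise comparisons, with dashed lines at 1.5-fold. Only the 2 points of Mmp2 against control (-0.64 and -0.72) lie past a line, and the β-END(1-9) points lie at or left of 0 for all 9 genes as deposited.

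**Figure D3:**
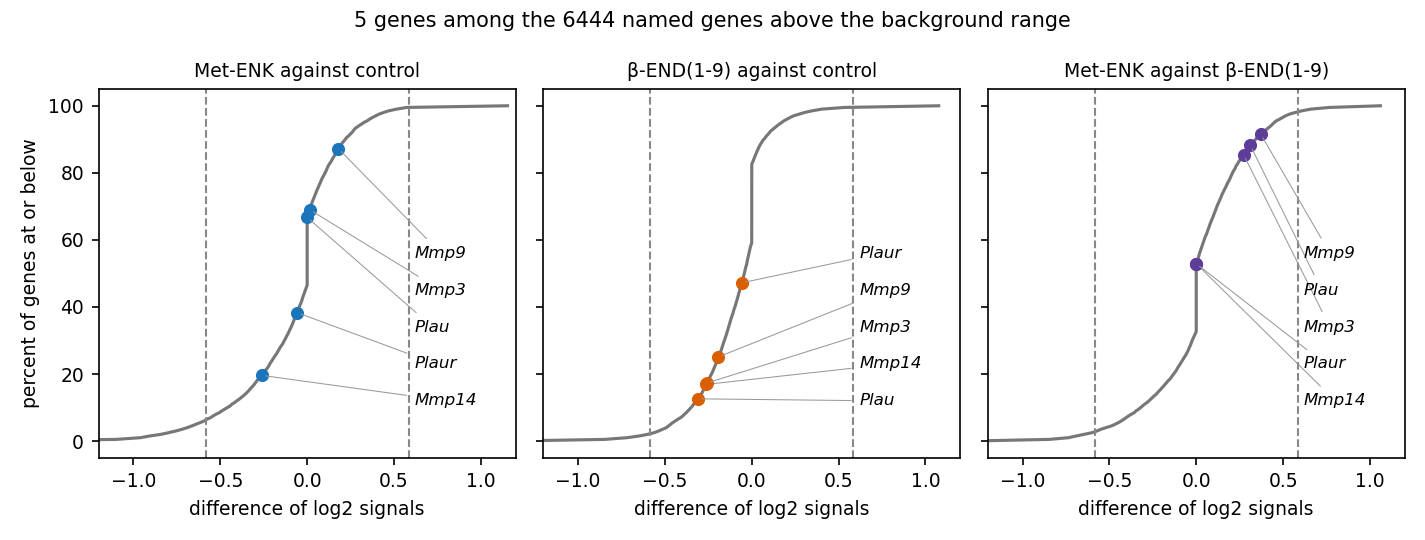
Share of the 6444 named genes above the background range (vertical axis, percent) whose difference of log2 signals is at or below the value on the horizontal axis, 1 panel per comparison, with points for the 5 genes of this group that lie above background. All 5 points stay between the dashed 1.5-fold lines, and in the β-END(1-9) panel they sit between 12.6% (Plau) and 47.2% (Plaur) of genes. The vertical step at 0 holds the genes with equal values on both arrays.

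Of the 9 genes, 3 also lie in the same gene cluster. Mmp3, Mmp10 and Mmp13 belong to a run of 10 neighbouring metalloproteinase genes on rat chromosome 8, of which 9 were measured. Only Mmp3 of these 9 lay above the background range.

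**Figure D4:**
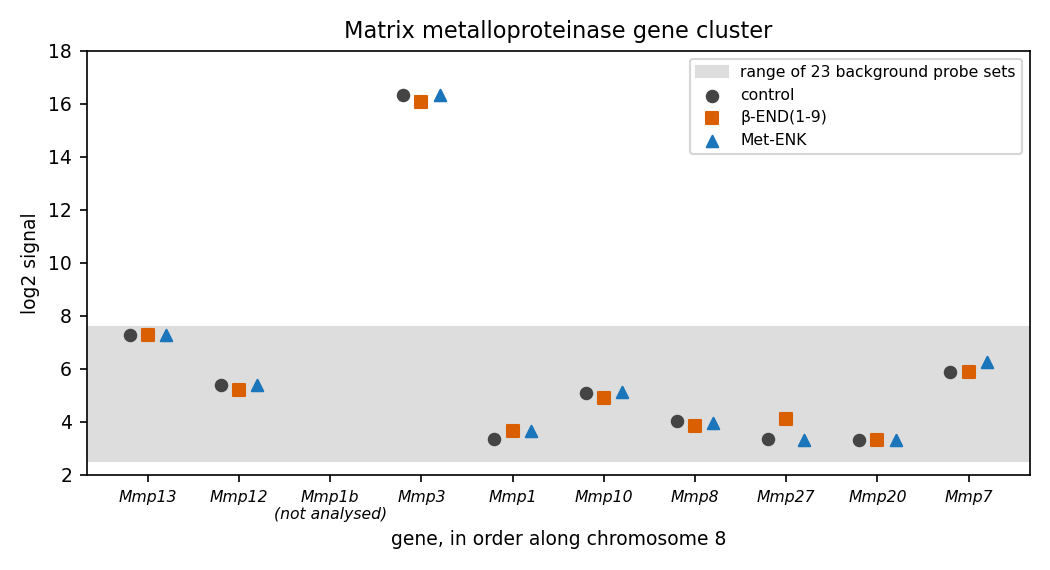
Log2 signal on the 3 arrays of the 10 metalloproteinase genes in their order along chromosome 8, with the background range shaded. Mmp3 stands near 16 on each array, the other 8 measured genes lie within the shading, and Mmp1b was not analysed.

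The pattern of Mmp9, lowest with β-END(1-9) and highest with Met-ENK, was set against the other 6443 genes above background by the Euclidean distance of the 3 log2 signals after each gene was centred on its own mean. The nearest were Prkd3 (0.0058), Ggta1 (0.0090), Setd7 (0.0094), Dnaaf9 (0.0095) and Cxadr (0.014). With 3 arrays such likeness is common, and 77 genes lay within a distance of 0.05.

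Inhibitors were measured beside the proteases. Timp1, which binds most secreted metalloproteinases, had log2 signals of 10.57, 10.25 and 9.96. It was lowest with Met-ENK, a difference of -0.61 from control that was past 1.5-fold as deposited but at -0.53 after quantile normalization and -0.581 after loess scaling. Timp2, the inhibitor that also takes part in activation of the Mmp2 product, had 13.94 on the control array and 13.56 on both peptide arrays, a difference of -0.38. Timp3, a matrix-bound inhibitor, stayed inside the background range at 2.64, 2.75 and 2.64. Of the 5 measured metalloproteinase inhibitor genes, 1 was past 1.5-fold on the Met-ENK array and 0 on the β-END(1-9) array. The shares over all named genes were 7.19% and 4.61%. On the Met-ENK array Timp1 thus differed from control by -0.61. The 5 genes of the group above background ran from -0.26 (Mmp14) to 0.18 (Mmp9) there, with 2 higher, 2 lower, 1 equal and a median of 0. Each value is a difference within 1 gene.

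Serpinb2, the plasminogen activator inhibitor that keratinocytes are known to make in quantity, had 12.80 on each array, equal to the last digit. The 4 measured inhibitors of plasminogen activators and plasmin had 0 past 1.5-fold in any comparison.

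Plasminogen itself, which is made mainly by the liver, had a signal of 4.14 on every array, inside the background range. Among the 10 measured genes for plasminogen, its receptors and the clearance of activator complexes, 2 were past 1.5-fold lower with Met-ENK against control and 0 with β-END(1-9). For scale, 633 of all 15037 named genes passed this limit downward on the Met-ENK array, among them 406 of the 6444 above background. The numbers for the β-END(1-9) array were 296 and 139. Plgrkt, a membrane receptor for plasminogen, had log2 signals of 7.97, 7.93 and 6.76. The Met-ENK value differed from control by -1.21 and from β-END(1-9) by -1.17, and it lay inside the background range. The control and β-END(1-9) values were close above the upper end of that range (7.57). On every array Plgrkt was below the 95th percentile of the negative controls. S100a10, the annexin A2 partner that binds plasminogen, had 15.90, 15.82 and 15.24, a difference of -0.66 with Met-ENK that was -0.57 after quantile normalization. Short genes as a class were lower on the Met-ENK array. In the fifth of genes above background with the shortest genomic span (up to 8.49 kb) the median difference from control was -0.14, against 0.00 in the fifth with the longest. Timp1 spans 6.07 kb and belongs to that shortest group. S100a10 (8.65 kb) and Plgrkt (14.3 kb) belong to the next group by span (8.487 to 17.774 kb), where the median with Met-ENK against control was -0.034. The part of gene size in the differences of these genes was not tested beyond removing the trend along span. With the trend taken from genes at or above the median level, the differences were -0.50 for Timp1, -0.57 for S100a10 and -1.15 for Plgrkt.

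**Figure D5:**
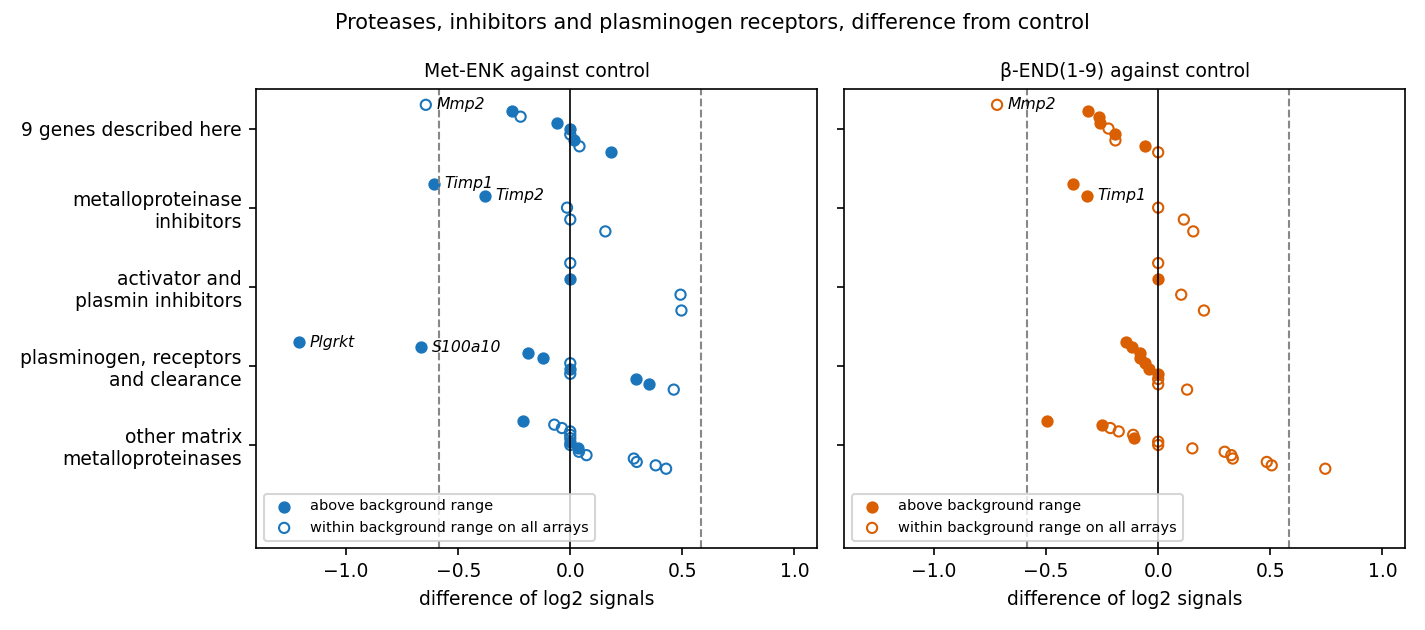
Difference from control of the log2 signals, with Met-ENK on the left and β-END(1-9) on the right, for the 9 genes and 4 lists of related genes, each point 1 gene. Filled points are genes above the background range on at least 1 array and dashed lines mark 1.5-fold. Plgrkt, S100a10 and Timp1 are the filled points past a line with Met-ENK, and no filled point passes one with β-END(1-9).

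Of the other matrix metalloproteinases 15 were measured and 3 lay above the background range. None was past 1.5-fold with Met-ENK against control (0 of 15), and 1 was with β-END(1-9), Mmp27, named after its values were seen, at 3.36, 4.11 and 3.33 inside the background range. For the transcription factors known to act on protease promoters, 15 were measured and 12 lay above the background range. On the β-END(1-9) array 11 of the 15 were lower than control and 2 higher, with a median of -0.16. Some of the lower differences were small, as for Ets1 (-0.011), Jund (-0.013) and Egr1 (-0.015), named after their values were seen. Over the 6444 genes above background, 59.0% were lower and 17.5% higher in this comparison, with a median of -0.04. Over all named genes, 39.5% were lower and 30.8% higher. The 1 gene of the 15 past 1.5-fold was Fos, an AP-1 subunit gene named after its values were seen, at 4.78, 5.58 and 4.77 inside the background range.

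Over all 81 measured genes of the 8 related lists, 5 were past 1.5-fold in Met-ENK against control, 3 in β-END(1-9) against control and 5 between the peptides. All named genes gave 7.19%, 4.61% and 5.56% in the same comparisons.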

How the data were processed

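The deposited table holds log2 signals, 1 per probe set and array. Per the submitters' processing notes, Affymetrix Expression Console, Transcriptome Analysis Console and RMA were used, with versions and annotation release not given in the sources used here. RMA corrects background, quantile-normalizes probes and summarises each set.

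Of 24834 probe sets, 15049 carry 1 gene symbol in the platform annotation and stand for 15037 genes. For 10 genes with several sets the one with the highest mean was used. Values were subtracted between arrays, with no test, in Python 3.11.15 (pandas 2.3.3). A gene was counted at 1.5-fold or more. Genomic span and promoters came from RefSeq (GRCr8). Alternatives were median centring, quantile and cyclic loess scaling (limma 3.58.1), 2-fold, 2 filters on low values, averaging probe sets and removal of the trend along span. The script that counts genes past 1.5-fold was checked on simulated data.

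The members and lists were chosen with earlier results of these data known. Named beside the 9 genes are related genes past 1.5-fold and above background on at least 1 array, a set list of inhibitors, Plg and 3 markers, and the 5 genes most like the member of widest range among those above background. Other genes were named after their values were seen, as the text says. Groups came from the sample titles.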

Additional observations from a re-analysis of the deposited data

How the results depend on the processing

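The difference of each of the 9 genes kept its side of the 1.5-fold limit under the 3 scalings, both removals of the span trend and averaging of probe sets (162 values, 0 changed). Each gene has 1 probe set, so averaging could not alter it. Small differences did change sign, as for Mmp3 with Met-ENK against control, from -0.03 to 0.09. Mmp2 ranged from -0.67 to -0.62 with Met-ENK and from -0.76 to -0.66 with β-END(1-9). The count of genes past 1.5-fold against control, 1 for each peptide, became 0 for each at 2-fold, among genes at or above the median level and among genes above background. Fewer genes remain in the last 2. On the β-END(1-9) array 8 of the 9 genes were lower as deposited and after centring, and 7 after quantile or loess scaling. The scalings moved the median of all named genes by at most 0.02. Of genes above background past 1.5-fold, the lower ones made up 93.3% (Met-ENK) and 86.9% (β-END(1-9)) as deposited, and 81.0% and 65.1% after quantile normalization. The related lists had 5 genes past 1.5-fold with Met-ENK against control and 3 after quantile normalization, where Timp1 and S100a10 were under the limit, and the cause was not tested. The span trend over genes at or above the median level, the mean of the 9 genes, the alternatives for related genes and the negative controls as a reference were added after the data were seen. No paired analysis was possible because each condition has 1 array.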

Other observations

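Other parts of the pericellular protease system were also read on these arrays. Of 13 measured activating proteases and cell surface partners 9 lay above the background range. The 1 gene of this list past 1.5-fold was Pcsk6, a proprotein convertase, named after its values were seen, at 3.92 on the control array and 4.71 on both peptide arrays, inside the background range. Of 9 measured ADAM and ADAMTS genes 3 lay above background, with a median difference of 0.15 between Met-ENK and β-END(1-9). The 2 past 1.5-fold between the peptides, Adam10 (0.59) and Adam19 (1.09), were named after their values were seen and stayed inside the background range on all 3 arrays. Adam19 was also past 1.5-fold with Met-ENK against control (0.71). Of all named genes, 7.19% were past 1.5-fold with Met-ENK against control, 4.61% with β-END(1-9) against control and 5.56% between the peptides.

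Of 10 measured genes for matrix substrates of these enzymes 7 lay above background and 0 differed by 1.5-fold in any comparison. Their median difference from control was 0.10 on the Met-ENK array and 0.00 on the β-END(1-9) array. Between the peptides it was 0.22, with 7 genes higher with Met-ENK and 2 lower. Among all genes above background, 47.1% were higher and 32.6% lower in this comparison. Their median difference was 0.08 in the fifth with the longest genomic span and -0.04 in the fifth with the shortest. The part of gene size in the values of the matrix substrates was not tested.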
